A study of Mus musculus with 16 samples.

Results

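Messenger RNA of spermatids lacking Tex10 was compared with that of wild-type spermatids across all measured genes. The comparison used 4 of the 16 libraries of the study, chosen by their titles: 2 of wild-type spermatids and 2 of Tex10-deficient spermatids. The other 12 libraries, from spermatogonia, MI spermatocytes and MII spermatocytes, entered the statistical model and served to test whether a difference was particular to spermatids. All animals were C57BL/6J males aged 8 weeks. The Tex10-deficient genotype was Tex10f/-; Stra8iCre, that is a floxed and a null Tex10 allele together with the iCre recombinase under the Stra8 promoter, which is active in germ cells from the spermatogonial stage on. In this model the recombinase thus acts from before meiosis on, and how completely the allele was excised is not known from these data. The comparison group was labelled wild type, and the sources used here do not say whether it carried the recombinase. Total RNA from sorted cells of the testis was sequenced in bulk after polyA enrichment, and the sources used here do not give the sorting method. Nor do they state whether replicate libraries were made from different animals. The p-values therefore reflect only the spread between the libraries, which may be technical.

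Tex10 is a nuclear and nucleolar protein. It belongs to a complex with Pelp1, Wdr18, Senp3, Las1l and Nol9 that takes part in maturation of the large ribosomal subunit, and it is also known as a partner of pluripotency factors at enhancers in embryonic stem cells. Spermatids are the haploid cells that follow meiosis: they first stay round, build the acrosome and begin the flagellum, and then elongate while histones give way to transition proteins and at last to protamines. Many of the messages for these late steps are made in round spermatids, stored and translated later.

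Of 13099 genes tested, between 10044 and 10890 reached 1 FPKM in each spermatid library (FPKM, a level corrected for transcript length and library size), and summed FPKM ran from 481973 to 533859. Read numbers are unknown, so no counting intervals are given. The wild-type libraries correlated with each other with a Spearman coefficient of 0.971 across genes, which are not independent replicates. Tex10-deficient library 1 correlated with them at 0.973 and 0.974. Library 2 stood apart, at 0.955 and 0.948 with the wild-type libraries and 0.944 with library 1, so that library 1 was nearer to the wild type than to its own replicate. For Tex10-deficient library 1 the cell type field of the labels reads MII spermatocyte although the title gives spermatid. Leydig cell markers, which were abundant in MII spermatocyte libraries (Insl3 from 463 to 979 FPKM), were low in it (Insl3 at 6.14 FPKM), and spermatid markers such as Tnp1 were at spermatid levels (1188 FPKM against 99.8 to 152 in MII spermatocyte libraries). The title was therefore followed. The field differs from the title in 6 of the 8 Tex10-deficient libraries of the study. Titles were followed for all 16 libraries, and the contrasts with the other cell types rest on them.

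Tex10 itself (XLOC_015051, chromosome 4, 48430858 to 48473459 on GRCm38) stood at 98.8 and 116 FPKM in the wild-type spermatids and at 31.8 and 34.8 in the Tex10-deficient ones. Both Tex10-deficient libraries lay below both wild-type libraries, and 31.0% of the wild-type level remained. The means were 107 ± 12.2 and 33.3 ± 2.14 FPKM (SD, n = 2 each), a difference of −1.66 on the log2(FPKM + 1) scale (SE 0.31). It did not pass at an adjusted p of 0.05 in limma with Benjamini-Hochberg adjustment over 13099 genes (adjusted p = 0.226; range over alternative settings 0.0766 to 1). The sources used here do not name the floxed exons, so the remaining value may include transcript outside the deleted part. In bulk RNA, fewer cells that carry a transcript and less of it per cell cannot be told apart.

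No gene passed the test between the genotypes in spermatids: 0 of 13099 in limma (0.0% higher and 0.0% lower). At an unadjusted p under 0.05 there were 284 genes (2.17%), of which 167 were higher (1.27%) and 117 lower (0.893%) in Tex10-deficient spermatids. Other settings called between 0 and 3 genes. Levels are therefore described by size and separation. A gene is called separated here when both Tex10-deficient libraries lay beyond both wild-type libraries and the mean difference was at least 1 on the log2(FPKM + 1) scale, a scale that understates the change of low genes. By that description 95 genes were higher (0.725% of those tested) and 56 lower (0.428%). With no minimum size, 1527 genes (11.7%) were higher without overlap and 2077 (15.9%) lower. The median difference over all genes was −0.02. Of the 95 separated higher genes, 75 stood further from the wild type in library 2 than in library 1. Of the 56 lower genes, 32 stood further away in library 2. By the rule, library 1 lay beyond both wild-type libraries in all of them. Its own difference from the wild-type mean reached 1 in 45 of the 95 higher and 41 of the 56 lower genes.

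**Figure D1:**
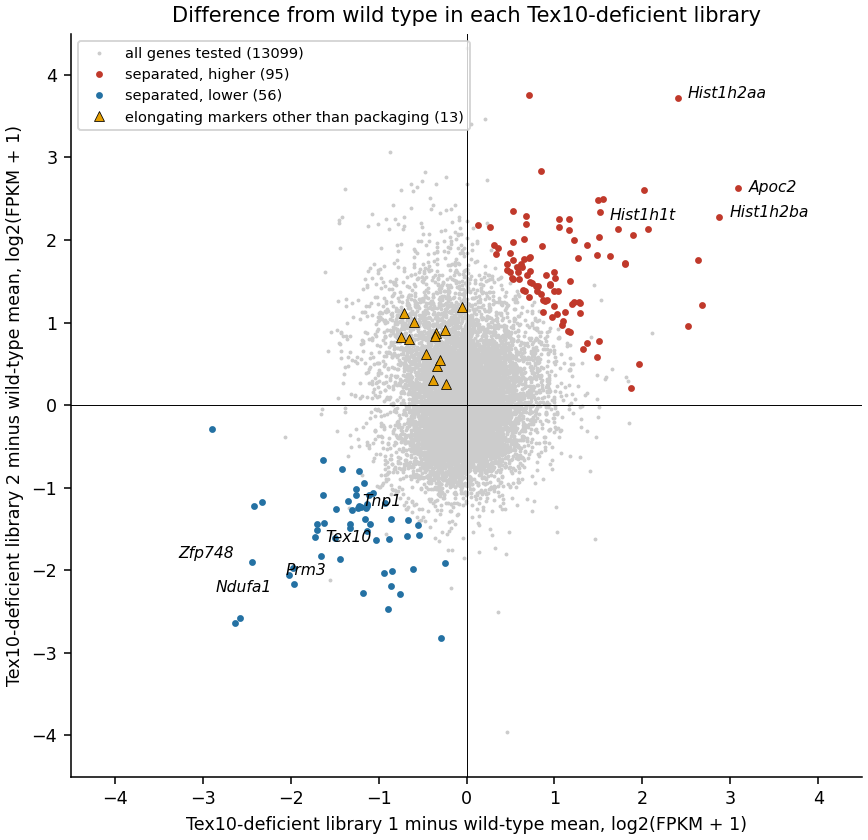
Difference from the wild-type mean in Tex10-deficient library 1 (horizontal axis) and library 2 (vertical axis), both on the log2(FPKM + 1) scale, with 1 point per gene for the 13099 genes tested. Red points are the 95 separated higher genes, blue points the 56 separated lower genes, and triangles the 13 elongating spermatid markers other than transition proteins and protamines, which all lie to the left of 0 for library 1 and above 0 for library 2.

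Genes of sperm chromatin packaging were among the most abundant transcripts to stand apart. Transition proteins replace histones in elongating spermatids, and protamines then replace the transition proteins and condense the sperm nucleus. All 5 transition protein and protamine genes measured (Tnp1, Tnp2, Prm1, Prm2 and Prm3) were separated and lower, with 31.0% to 43.3% of the wild-type level. In the background 0.428% of genes were. They are called packaging genes here, although Prm3, an acidic relative, is counted with them by name only. Of the 1251 genes whose higher group averaged at least 100 FPKM, 6 were separated and lower, and 4 of these were Tnp1, Tnp2, Prm1 and Prm2. None of the 5 passed the adjusted test (limma adjusted p from 0.706 to 1).

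The promoters of packaging genes are shown because classical work on spermatids ties these genes to CREM, an activator that binds cyclic AMP response elements. The 250 bases before the annotated start are printed 5′ to 3′ on the gene's strand (RefSeq, GRCm38.p6), with matches to TGANNTCA, a relaxed form of the element, in capitals. Of the 8 genes whose promoters were looked up, 8 matched a RefSeq entry. The windows lie on the minus strand at chr1:73015900-73016149 for Tnp1, chr16:10796824-10797073 for Prm1 and chr16:10790915-10791164 for Prm3.
Tnp1: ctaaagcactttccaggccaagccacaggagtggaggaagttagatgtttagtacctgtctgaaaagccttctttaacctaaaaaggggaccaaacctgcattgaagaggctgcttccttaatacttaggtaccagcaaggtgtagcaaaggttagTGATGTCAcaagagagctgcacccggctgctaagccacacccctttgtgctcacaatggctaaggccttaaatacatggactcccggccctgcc
Prm1: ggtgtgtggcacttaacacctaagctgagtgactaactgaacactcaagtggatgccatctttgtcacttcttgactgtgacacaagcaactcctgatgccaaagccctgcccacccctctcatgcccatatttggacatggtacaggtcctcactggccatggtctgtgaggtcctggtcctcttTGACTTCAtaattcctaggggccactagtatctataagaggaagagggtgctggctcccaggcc
Prm3: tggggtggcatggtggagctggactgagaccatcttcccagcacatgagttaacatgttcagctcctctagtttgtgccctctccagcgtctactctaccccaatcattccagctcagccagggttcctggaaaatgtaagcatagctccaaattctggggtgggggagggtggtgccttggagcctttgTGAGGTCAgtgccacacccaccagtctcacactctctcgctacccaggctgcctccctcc
The match began 94 bases before the start in Tnp1 (TGATGTCA), 64 in Prm1 (TGACTTCA) and 60 in Prm3 (TGAGGTCA). Searched on both strands, which give the same matches because the motif is its own reverse complement, these letters occur in 11.93% of 32851 RefSeq mouse promoter windows of the same 250 bases. No match was found in the windows of Tnp2 and Prm2, where the letters TATAAA (both strands; 12.368% of windows) occurred in Prm2. A match is only a description of the letters.

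Tnp1 (chromosome 1, 73015074 to 73015909), the more abundant transition protein transcript, stood at 2592 and 3301 FPKM in the wild type and at 1188 and 1209 in Tex10-deficient spermatids. Its 2 Tex10-deficient libraries were close together and well under both wild-type libraries. The log2 difference was −1.29 (SE 0.31, limma unadjusted p = 0.00113, adjusted p = 0.706; range over alternative settings 0.271 to 1). Tnp2, the other transition protein, held 1099.5 and 1552 FPKM against 519 and 464 (log2 difference −1.41, SE 0.51, unadjusted p = 0.0152).

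Protamine transcripts showed the same order of libraries. Prm1 stood at 1592 and 1717 FPKM in the wild type and at 896 and 537 in Tex10-deficient spermatids (log2 difference −1.25, SE 0.75, unadjusted p = 0.119). Prm2, whose protein is made as a precursor and trimmed in the maturing sperm, stood at 1791 and 3574 FPKM against 996 and 1127 (log2 difference −1.25, SE 0.62, unadjusted p = 0.0622). The wild-type libraries of Prm2 differed most, and without wild-type library 2 its difference was −0.76. Prm3, a small acidic relative encoded between Tnp2 and Prm2, stood at 57.4 and 61.6 FPKM against 21.3 and 15.6 (log2 difference −1.65, SE 0.56, unadjusted p = 0.0104). In no packaging gene did the groups overlap. Each Tex10-deficient library taken by itself gave differences of −1.44 to −0.88 (library 1) and −1.86 to −1.17 (library 2) over the 5 genes. Tnp2, Prm3, Prm2 and Prm1 are neighbours, in that order, within 17904 bases on chromosome 16 (10787936 to 10805839, minus strand), and since the strand setting of the authors' quantification is not given, reads of overlapping transcripts there cannot be told apart.

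**Figure D2:**
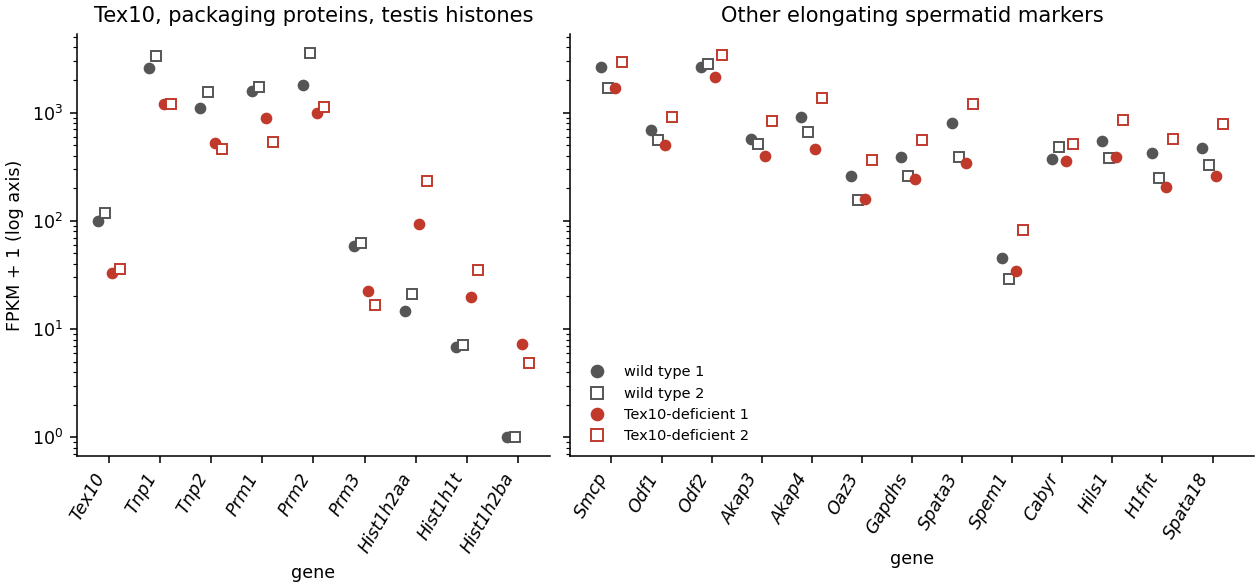
Level of each gene as FPKM + 1 on a log axis in the 4 spermatid libraries, where grey marks are wild type, red marks Tex10-deficient, filled circles library 1 and open squares library 2. In the left panel both red marks lie below both grey ones for Tex10 and the 5 packaging genes and above them for the 3 testis histones, whereas in the right panel the red square is the highest mark for all 13 other elongating spermatid markers.

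The other markers of elongating spermatids did not share this pattern. These 13 genes, set apart from the packaging genes after their values were seen, include sperm tail, fibrous sheath and mitochondrial capsule proteins and the late linker histones Hils1 and H1fnt. Of the 13, 0 were separated. Tex10-deficient library 1 lay below both wild-type libraries in 10 of 13 (median difference −0.36), and library 2 lay above both in 13 of 13 (median 0.82), with a median ratio of library 2 to library 1 of 2.30. Akap4, the main scaffold of the fibrous sheath, stood at 903 and 661 FPKM in the wild type and at 462 and 1367 in the Tex10-deficient libraries. Smcp, of the mitochondrial capsule, stood at 2638 and 1686 FPKM against 1675 and 2933. Odf2, of the outer dense fibers, stood at 2647 and 2840 FPKM against 2112 and 3400. Library 2 was thus the highest and library 1 the lowest of the 4 in each of these 3 genes. The same ratio over the 5 packaging genes was 0.89, with library 2 above library 1 in 2 of 5. What sets the libraries apart in late markers, and its part in the packaging values, was not tested.

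Across cell types, the packaging transcripts were mainly spermatid transcripts. Tnp1 stood at 6.19 and 10.5 FPKM in wild-type spermatogonia, 14.9 and 12.3 in MI spermatocytes and 152 and 116 in MII spermatocytes. In the 6 Tex10-deficient libraries of these types it ran from 9.27 to 121 FPKM. The difference in spermatids minus the mean difference in the other 3 cell types was −1.51 for Tnp1 (limma unadjusted p = 0.000975, adjusted p = 1), −2.11 for Prm3 (unadjusted p = 0.00555), −1.37 for Tnp2 (0.0361), −1.27 for Prm2 (0.0985) and −0.85 for Prm1 (0.344). None passed adjustment. Over all genes this test of the difference between cell types called 0 of 13099 (0.0%), with 270 genes (2.06%) at an unadjusted p under 0.05. Spermatid markers as lists were lower in Tex10-deficient MII spermatocytes. Their medians were −1.13 (round) and −0.88 (elongating), beside −0.02 over all genes. A lower MII value makes the contrast for packaging genes less negative. The source of this MII difference was not tested.

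**Figure D3:**
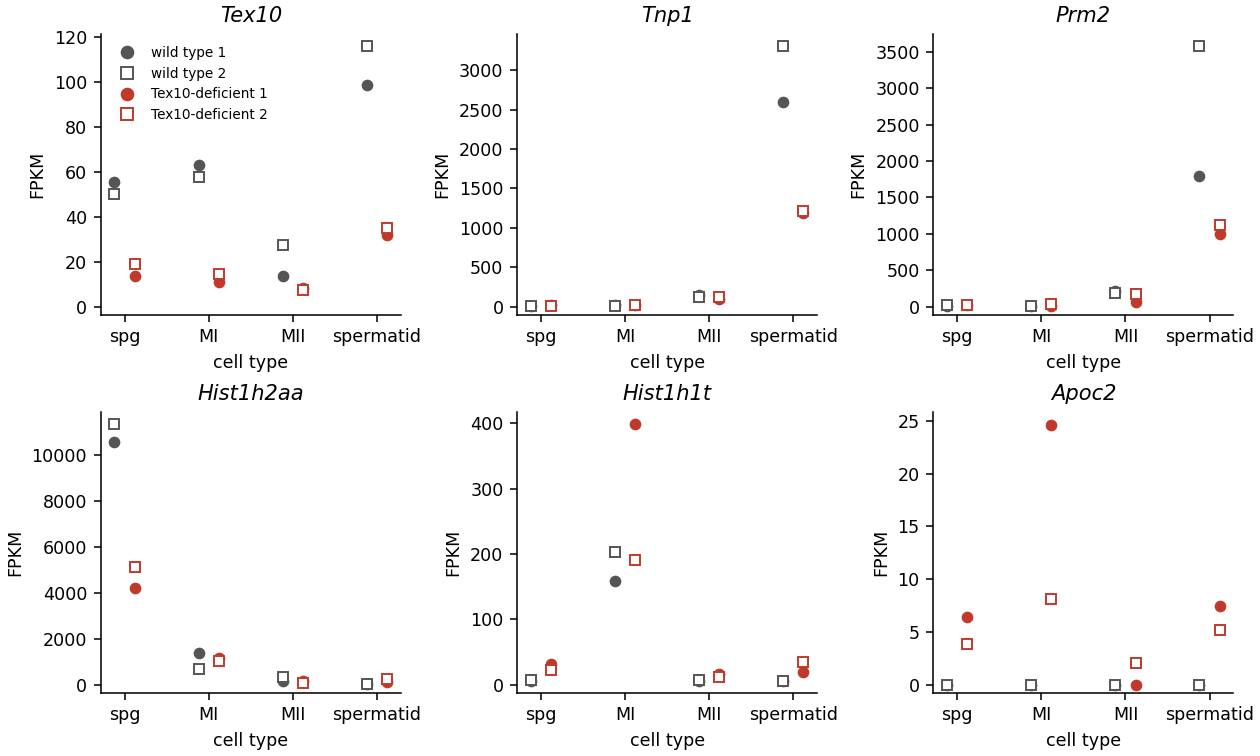
FPKM (linear axes) of 6 genes in all 16 libraries by cell type (spg, spermatogonia; MI and MII, spermatocytes), with grey marks for wild type, red for Tex10-deficient, circles for replicate 1 and squares for replicate 2. Tnp1 and Prm2 are highest in spermatids, Hist1h2aa is highest in spermatogonia, Hist1h1t in MI spermatocytes, and Apoc2 is at 0 in all 8 wild-type libraries.

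Testis histones stood in the opposite direction. Hist1h2aa and Hist1h2ba encode testis-specific core histones and Hist1h1t the testis linker histone, all of which belong to the chromatin of meiotic and early haploid cells before transition proteins are loaded. Of 13 measured genes of the chromatin replacement list, these 3 were separated and higher (23.1%, beside 0.725% of all genes). The 5 packaging genes were separated and lower (38.5%, beside 0.428%). The median of the 13 was 0.07 beside −0.02 over all genes. None passed adjustment.

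The shared promoter of the core histone pair and the promoter of the linker gene are shown because these genes stood apart together. Hist1h2aa and Hist1h2ba (RefSeq symbols H2ac1 and H2bc1) are transcribed away from each other on chromosome 13, with 305 bases between them, so the window of Hist1h2aa (chr13:23934187-23934436, plus strand) covers most of both promoters. The window of Hist1h1t (RefSeq H1f6) is chr13:23695561-23695810, plus strand. Capitals mark the octamer ATTTGCAT, CCAAT and TATAAA on either strand.
Hist1h2aa: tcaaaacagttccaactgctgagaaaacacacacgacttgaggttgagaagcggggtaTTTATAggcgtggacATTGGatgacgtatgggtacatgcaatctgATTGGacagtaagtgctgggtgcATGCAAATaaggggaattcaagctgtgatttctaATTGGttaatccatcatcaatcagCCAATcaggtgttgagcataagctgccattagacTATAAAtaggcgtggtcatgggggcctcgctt
Hist1h1t: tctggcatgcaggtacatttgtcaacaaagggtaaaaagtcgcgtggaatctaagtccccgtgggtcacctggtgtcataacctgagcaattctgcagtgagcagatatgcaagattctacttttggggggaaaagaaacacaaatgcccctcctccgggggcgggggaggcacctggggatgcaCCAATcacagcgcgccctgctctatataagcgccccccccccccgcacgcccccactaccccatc
The octamer occurs in 1.601% of RefSeq windows, CCAAT in 33.85% and TATAAA in 12.368%. The Hist1h2aa window held 1 octamer, 4 CCAAT and 2 TATAAA matches, and the Hist1h1t window held 1 CCAAT match. No match overlapped another.

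Hist1h2aa (XLOC_005189, chromosome 13, 23934462 to 23934851) stood at 13.7 and 20.3 FPKM in the wild type and at 92.3 and 232 in Tex10-deficient spermatids. Both Tex10-deficient libraries were above both wild-type libraries, and the mean was 9.54 times as high, although library 2 was far above library 1. The log2 difference was 3.06, and 2.40 without library 2 (SE 0.51 with both, limma unadjusted p = 3.32e-05, adjusted p = 0.145; range over alternative settings 0.0766 to 1). Hist1h1t stood at 5.75 and 6.11 FPKM against 18.9 and 34.1 (log2 difference 1.93, SE 0.36, adjusted p = 0.226), again without overlap. Hist1h2ba was listed at 0 in both wild-type libraries and at 6.34 and 3.87 FPKM in the Tex10-deficient ones (log2 difference 2.58, SE 0.56, adjusted p = 0.401).

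In the wild type, Hist1h2aa and Hist1h2ba were much more abundant in spermatogonia and MI spermatocytes than in spermatids, and Hist1h1t in MI spermatocytes only. Hist1h1t stood at 159 and 203 FPKM in wild-type MI spermatocytes. In spermatogonia it stood at 6.08 and 6.79 FPKM in the wild type, near its wild-type spermatid level, and at 31.0 and 22.7 in Tex10-deficient libraries. Hist1h2aa stood at 10547 and 11318 FPKM in wild-type spermatogonia and at 4185 and 5098 in Tex10-deficient ones, and at 683 to 1394 FPKM in the 4 MI spermatocyte libraries. Against the mean difference in the other 3 cell types, its spermatid difference was larger by 3.78 (limma unadjusted p = 1.64e-05, adjusted p = 0.107). For Hist1h1t the same contrast was 0.74 (unadjusted p = 0.1), and its mean was also higher in Tex10-deficient spermatogonia, MI and MII spermatocytes, by 1.89, 0.62 and 1.05 on the log2 scale. Spermatogonial markers gave a median difference of 0.06 in Tex10-deficient library 1 and 0.56 in library 2 over 14 genes. Of these, 12 had a higher and 2 a lower mean in Tex10-deficient spermatids, where 6263 of all 13099 genes had a higher mean. Only Uchl1 was separated and higher (7.14% of the list, beside 0.725% of all genes), and it was under 3 FPKM throughout. Summed levels of the 14 markers were 206 and 194 FPKM in the wild type and 277 and 179 in the Tex10-deficient libraries. Most of each sum was Dmrtb1, at 187 and 171 FPKM against 249.5 and 147. Dmrtb1 was lower in wild-type spermatogonia, at 15.7 and 19.1 FPKM, so the sums say little about spermatogonial RNA. The part of spermatogonia in the histone values was not tested.

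Among all 49 histone genes found by symbol, a group formed after values were seen, 6 were separated and higher (12.2%, beside 0.725% of all genes) and 0 lower (beside 0.428%), and 37 of the 49 were under 5 FPKM in all 4 libraries. Hist3h2a, a core histone gene on chromosome 11, stood at 17.6 and 29.4 FPKM in the wild type and at 44.9 and 64.2 in Tex10-deficient spermatids (log2 difference 1.20, SE 0.39, adjusted p = 1). Hist1h4c stood at 2.11 and 8.33 FPKM against 12.1 and 11.8, and Hist1h2ac was under 2 FPKM throughout. H3f3b, 1 of the genes of the replacement histone 3.3, stood at 21.9 and 23.9 FPKM against 31.4 and 43.0, without overlap but with a difference of 0.66. The libraries overlapped for its partner H3f3a and for H2afb1, a short testis variant. Many histone genes are near copies of each other, and most replication-linked histone messages lack a polyA tail, so these levels are uncertain in polyA-enriched libraries.

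Genes that act on histones before their removal were read next. Of 8 measured genes of histone eviction, 0 were separated, beside 0.725% higher and 0.428% lower over all genes, and the median was −0.13. At these shares a short list often holds no separated gene, so a count of 0 does not set it apart from other genes. The same applies to the counts of 0 in the lists that follow. Brdt, the bromodomain protein that compacts acetylated chromatin, stood at 464 and 534 FPKM in the wild type and at 450.2 and 396 in Tex10-deficient spermatids. Psme4, the proteasome activator that degrades acetylated histones, stood at 348 and 412 FPKM against 325 and 321. In both genes the groups did not overlap, and the log2 differences were −0.24 (SE 0.49) and −0.23 (SE 0.38), each smaller than its standard error. Chd5, a remodeler of spermatid chromatin, overlapped between groups at 42.5 and 40.2 FPKM against 40.7 and 53.3.

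Of 13 measured transcription factors of haploid cells 0 were separated, and the median difference was −0.03. Crem, the activator named above, stood at 165 and 187 FPKM in the wild type and at 174 and 164 in Tex10-deficient spermatids. Rfx2, which drives ciliary genes, stood at 185 and 188 FPKM against 186 and 179.7, and Sox30, which starts the round spermatid program, at 190.2 and 226 against 176 and 231.5. The groups overlapped for these 3 genes, with log2 differences of −0.06 (SE 0.39), −0.03 (SE 0.42) and −0.04 (SE 0.47). A missed threshold at these standard errors does not show equal levels.

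Round spermatid markers had a median difference of 0.01 over 21 genes, and 0 were separated. Acrv1, an acrosomal matrix protein, stood at 351 and 461 FPKM in the wild type and at 359.5 and 381 in Tex10-deficient spermatids. The acrosome list had a median of −0.01 over 22 genes with 0 separated, and Acr, the protease of the acrosome, overlapped at 159.7 and 171 FPKM against 177 and 151. These lists share members. Both groups thus carried the markers of the labelled cell type.

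Of 31 measured axoneme and tail assembly genes, 28 had a lower mean in Tex10-deficient spermatids, where 6833 of all 13099 genes did, and 0 were separated. The list median was −0.18. The medians of the 2 Tex10-deficient libraries were 0.02 and −0.33. Dnah8, an outer arm dynein heavy chain, stood at 426 and 475 FPKM in the wild type and at 397 and 252 in Tex10-deficient spermatids, a log2 difference of −0.50 (SE 0.54). Ropn1, of the fibrous sheath, was 1 of the 3 that were higher, at 78.0 and 74.8 FPKM against 86.5 and 122. Without library 2 the list median was 0.02, so that the lower means rested on library 2.

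Lists for later sperm functions showed small differences. Sperm energy metabolism had a median of −0.07 over 15 genes, and its most abundant member Ldhc, the testis lactate dehydrogenase, stood at 2802 and 2343 FPKM against 2870.1 and 2134.5. Sperm ion channels had a median of −0.16 over 14 genes. Slc9c1, the sperm sodium-proton exchanger, stood at 58.5 and 117 FPKM in the wild type and at 48.8 and 44.1 in Tex10-deficient spermatids, lower without overlap (log2 difference −0.82, SE 0.53, adjusted p = 1). Storage and translation control of messages had a median of −0.03 over 17 genes and the piRNA pathway −0.07 over 21. Mael, a piRNA factor and the most abundant of all genes in wild-type spermatids, stood at 3891 and 4216 FPKM against 4187 and 2979.5. No gene of these 4 lists was separated.

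The partners of Tex10 and the nucleolar genes did not stand apart as groups. Of the 6 partners, 0 were separated. Pelp1, the scaffold of the complex, stood at 15.8 and 13.2 FPKM in the wild type and at 16.8 and 7.78 in Tex10-deficient spermatids. Mdn1, the large ATPase that the complex recruits to pre-ribosomes, was lower without overlap at 18.1 and 21.9 FPKM against 17.0 and 11 (log2 difference −0.51, SE 0.33, adjusted p = 1). Nol9, a kinase of ribosomal RNA processing, was higher without overlap at 1.32 and 1.66 FPKM against 2.12 and 2.30. Wdr18, Senp3 and Las1l overlapped.

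Of 31 nucleolar genes, 1 was separated and higher (Nhp2, of the box H/ACA particle) and 1 lower (Gar1, of the same particle). That is 3.23% each way, beside 0.725% higher and 0.428% lower over all genes. Both genes were under 7 FPKM, and the list median was 0.03. Bop1, a factor of large subunit maturation, stood at 4.84 and 3.76 FPKM against 8.00 and 7.30, higher without overlap with a log2 difference of 0.71 (SE 0.36, adjusted p = 1). Of 25 ribosomal protein genes, 1 was separated and higher (4.0%, beside 0.725% of all genes) and 0 lower, and the median was −0.04. This gene, Rpl10a, stood at 0.919 and 0.312 FPKM in the wild type and 2.82 and 4.44 in Tex10-deficient spermatids.

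The 12 highest-ranked higher genes and the 12 highest-ranked lower genes by unadjusted p, the latter with Tex10 among them (limma adjusted p from 0.145 to 1 and from 0.184 to 0.96), were mostly of low level. Apoc2, the cofactor of lipoprotein lipase in plasma, was listed at 0 in both wild-type spermatid libraries and at 7.47 and 5.19 FPKM in the Tex10-deficient ones (log2 difference 2.86, SE 0.50, adjusted p = 0.184). The differences in spermatogonia, MI and MII spermatocytes were 2.58, 3.94 and 0.81, and the spermatid value exceeded their mean by 0.41 (unadjusted p = 0.487). With both wild-type libraries at 0 its size depends on the pseudocount, and it ran from 1.17 to 5.98 over the settings. Idh3g, a subunit of mitochondrial isocitrate dehydrogenase, stood at 0.807 and 1.21 FPKM in the wild type and at 3.48 and 8.56 in Tex10-deficient spermatids. It was higher in the 4 MII spermatocyte libraries, from 15.5 to 32.8 FPKM.

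Chchd10, a mitochondrial intermembrane protein, stood at 2.90 and 1.56 FPKM against 7.95 and 12. Tmem86b, a lysoplasmalogenase, stood at 3.01 and 0.821 FPKM against 7.36 and 8.43. Slxl1, an X-linked gene of spermatids, stood at 3.62 and 4.54 FPKM against 9.06 and 7.01, a difference under 1 on the log2 scale. Kif16bos, Zfp457 and Tmed3 were also among the higher genes of this ranking and were separated. Outside the ranking because of its clone name, 4930515B02Rik stood at 1.76 and 2.41 FPKM against 9.68 and 9.01 (log2 difference 1.75, SE 0.29, adjusted p = 0.145).

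Among lower genes, Ndufa1, a small subunit of respiratory complex I, stood at 5.90 and 5.61 FPKM in the wild type and at 0.668 and 0.625 in Tex10-deficient spermatids. The log2 difference was −2.04 (SE 0.36, adjusted p = 0.184), and against the mean of the other 3 cell types it was −2.79 (unadjusted p = 1.21e-05, adjusted p = 0.107), the smallest p of that test. In spermatogonia Ndufa1 was not lower, at 11.6 and 27.4 FPKM in Tex10-deficient and 7.72 and 11.2 in wild-type libraries. Prdx5, a peroxiredoxin, stood at 16.8 and 10.3 FPKM against 3.35 and 4.25, with a difference from the other cell types of −2.04 (unadjusted p = 0.000312). Aunip, a partner of Aurora A kinase, stood at 7.77 and 5.34 FPKM against 1.29 and 1.61 (difference from the other cell types −1.80, unadjusted p = 0.000442). Neither passed adjustment.

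Atg4c, an autophagy protease, stood at 41.8 and 39.6 FPKM in the wild type and at 22.1 and 15.0 in Tex10-deficient spermatids (log2 difference −1.12, SE 0.29, adjusted p = 0.818). Ncam1, a cell adhesion molecule, stood at 8.54 and 9.52 FPKM against 3.57 and 3.38. Rapgef2, an exchange factor for Rap, stood at 5.19 and 5.28 FPKM against 1.48 and 1.30. In these 3 genes the libraries of each group were close together and the groups far apart. The other lower genes by this ranking were Zfp748, Rsl1, Olfr722, Olfr1284 and, as given above, Tnp1.

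Markers of other cells moved with Tex10-deficient library 2. Leydig cell markers (9 of 9 measured) summed to 80.5 and 17.2 FPKM in the wild type and to 22.2 and 246 in the Tex10-deficient libraries, and Insl3, the Leydig cell hormone, stood at 33.8, 3.89, 6.14 and 108 FPKM in the same order. Sertoli cell markers (7 of 14 measured) summed to 49.8 and 34.9 FPKM against 36.1 and 167, and Clu, a secreted chaperone of Sertoli cells, stood at 13.1 and 8.57 against 7.10 and 45.1. Library 2 was the highest of the 4 for both lists, and library 1 lay within the wild-type range.

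Immune markers (15 of 15) summed to 13.2 and 10.8 FPKM against 15.1 and 40.5. Of these 15, 3 were separated and higher (C1qb, Lyz2 and Cd68), beside 0.725% of all genes. Of the 7 Sertoli markers 1 was (Wt1). In both lists 0 were separated and lower, beside 0.428% of all genes. In the Leydig, myoid and endothelial, and T and NK cell lists 0 were separated. Myoid and endothelial markers (5 of 11) summed to 2.59 and 2.09 FPKM against 2.40 and 9.02, T and NK cell markers (3 of 7) to at most 0.157 FPKM, and no erythroid marker was in the table (0 of 5). Meiotic prophase markers had a median of −0.10 over 26 genes and late spermatocyte markers −0.09 over 15, with 0 separated in either. The part of these cells in the separated genes was not tested. Without library 2, 45 of the 95 separated higher genes and 41 of the 56 separated lower genes stayed separated. Tnp1 (−1.30 on the log2 scale) and Hist1h2aa (2.40) were among them.

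**Figure D4:**
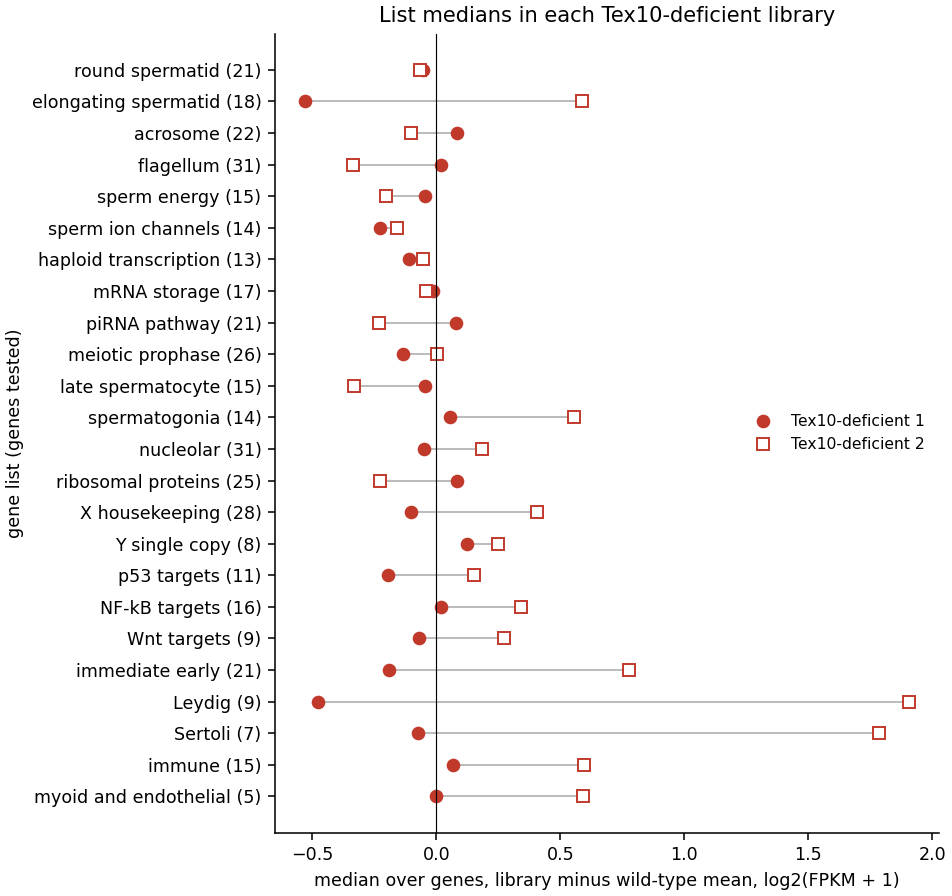
Median over the genes of each list of the difference between a Tex10-deficient library and the wild-type mean, on the log2(FPKM + 1) scale, for library 1 (filled circles) and library 2 (open squares), with the number of genes tested in brackets. Among the lists drawn, the libraries lie far apart for Leydig (−0.48 and 1.90), Sertoli (−0.07 and 1.78) and elongating spermatid markers (−0.53 and 0.59) and close together near 0 for round spermatid, haploid transcription and mRNA storage genes.

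Stress and signalling lists followed the same split. Immediate early genes had medians of −0.19 in Tex10-deficient library 1 and 0.78 in library 2 over 21 genes, Wnt targets −0.07 and 0.27 over 9, NF-kB targets 0.02 and 0.34 over 16, interferon genes −0.03 and 0.14 over 7 and p53 targets −0.19 and 0.15 over 11. In these 5 lists 0 genes were separated. Dusp1, a phosphatase of the immediate early response, stood at 4.56 and 5.66 FPKM in the wild type and at 4.32 and 17.9 in the Tex10-deficient libraries.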

How the data were processed

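Libraries of polyA-enriched bulk RNA were made from sorted testis cells in 8 groups of 2. The tools named in the submitters' processing notes are Cufflinks 2.2.1, STAR 2.7.6a, cutadapt, Trim Galore 0.6.3 and FastQC 0.10.1, and the genome build is mm10. The sources used here do not give the gene annotation, the strand setting or the filter that left 13101 genes. The authors deposited FPKM values to which 1 had been added (smallest value 1). This 1 was subtracted, 1 gene with a cell that was not a number was left out, and read depth is unknown.

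The test covered the 13099 genes that reached 1 FPKM in 2 or more of the 16 libraries. Values of log2(FPKM + 1) were fitted with limma 3.58.1 in R 4.3.3 (lmFit, eBayes with trend, two-sided) over 8 groups with 8 residual degrees of freedom, and p-values were adjusted by Benjamini-Hochberg at 0.05. The contrasts were Tex10-deficient minus wild-type spermatids, and that difference minus the mean difference in the other 3 cell types. On data simulated from the real spermatid means with 200 of 13099 genes changed, the fit recovered 72% of changes of log2 size 2 and 12% of size 1. The changed genes were drawn only from those above a set mean level in spermatids. Each gene had the same spread in every simulated library, so changes in low genes and a library that stands apart were not covered.

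Positions are from GENCODE (GRCm38) by symbol for 12593 genes, and a further 477 received a chromosome from RefSeq. Named genes were Tex10 and 12 higher and 12 lower genes (Tex10 among the latter) by unadjusted p among those whose libraries did not overlap, a mean of 5 FPKM or more in the higher group and no clone name, and members of the lists with the smallest p or, for cell type markers, the highest level, and the 5 genes of smallest p for the difference between cell types. Other genes are named where the text says so or as examples of a list. The comparison, its gene lists and the rule were chosen with earlier results of these data known. Alternatives were 2 other pseudocounts, 2 other filters, 2 scalings, eBayes without trend, array weights, a replicate block, fewer cell types and leaving out each spermatid library.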

Additional observations from a re-analysis of the deposited data

How the results depend on the processing

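The number of genes passing the test in spermatids was 3 (2 higher) with a pseudocount of 0.1, 1 (1 higher) with a pseudocount of 5 and 0 to 1 (0 to 1 higher) on leaving out a library. The genes were Hist1h2ba, Rab34 and Ndufa1 with the pseudocount of 0.1 and 4930515B02Rik with 5. They were 4933413L06Rik without wild-type library 1, 1700063D05Rik without wild-type library 2 and 1700011M02Rik without Tex10-deficient library 1. Genes at an unadjusted p under 0.05 numbered 1100 without Tex10-deficient library 1, 257 without library 2, 517 with the pseudocount of 0.1 and 177 with quantile normalization, from 284. The test of the difference between cell types gave 2 genes with a pseudocount of 0.1, 1 with a pseudocount of 5 and 0 to 1 on leaving out a library. Separated higher genes numbered 504, 18 and 56 with a pseudocount of 0.1, a pseudocount of 5 and quantile normalization, and 121 to 875 on leaving out a library. Separated lower genes numbered 234 and 19 with the pseudocounts of 0.1 and 5, and 147 to 220 on leaving out a library. The pseudocount of 5 shrinks the differences of low genes by construction, and the pseudocount of 0.1 enlarges them. Leaving out a library also relaxes the rule of no overlap, because fewer libraries must lie beyond the other group. Part of the larger counts of separated genes is thus built in. Other causes were not tested.

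Replicate numbers do not pair these samples by any label, and deviations of same-numbered wild-type and Tex10-deficient spermatid libraries correlated at −0.127 across genes. Between wild-type groups this correlation ran from 0.143 to 0.358, and between Tex10-deficient MI spermatocytes and spermatids it was 0.418. With the replicate block, 1 gene passed, Zfp748 (log2 difference −2.17, limma adjusted p = 0.026; range over its settings 0.026 to 1), and with the numbers crossed, an alternative added after the data were seen, 0 passed. The log2 difference of Tex10 kept its direction under all settings (−1.77 to −1.23). Across other results, 965 values were counted as unchanged, 36 moved, 4 genes came to pass and 0 reversed. Counts and list medians had a limit on the size of the change. A single gene counted as unchanged if its direction and the outcome of its test stayed the same, whatever its size. Apoc2, which ran from 1.17 to 5.98, was so counted, and the 965 therefore do not measure stable sizes. With 2 libraries a group, most changes of log2 size 1 went undetected in the simulated data. The simulation held no library that stood apart, so it does not show what Tex10-deficient library 2 did to detection.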

Other observations

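X-linked genes stood higher in Tex10-deficient library 2. Of 503 tested genes on the X chromosome, 388 had a higher mean in Tex10-deficient spermatids, where 5851 of 12558 autosomal genes did. The median difference was −0.06 in library 1 and 0.40 in library 2, beside −0.06 and −0.01 for autosomes, so that the shift was in library 2 alone, the library with the higher somatic marker levels given above. Separated genes on the X chromosome numbered 3 higher (0.596%) and 1 lower (0.199%), no more than the 0.725% and 0.428% over all genes. Of 28 broadly expressed X-linked genes, 21 were higher and 0 separated, with medians of −0.10 and 0.41 in libraries 1 and 2. Nono, an RNA-binding protein of paraspeckles, stood at 0.624 and 0.233 FPKM in the wild type and at 1.05 and 2.44 in Tex10-deficient spermatids. The part of other cell types in this shift was not tested.

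Olfactory receptor genes, a family with members transcribed in haploid germ cells, were grouped after their values were seen. Of 22 tested, 5 were separated and lower (22.7%, beside 0.428% of all genes) and 0 higher (beside 0.725%), with a median of −0.28. Olfr1284 stood at 9.53 and 13.9 FPKM in the wild type and at 4.55 and 1.58 in Tex10-deficient spermatids, and its neighbours Olfr1278 and Olfr1277 on chromosome 2 at 5.84 and 8.61 against 4.05 and 1.71 and at 2.90 and 3.14 against 1.73 and 0.471. All 3 were lower without overlap. In MI spermatocytes these 3 differed by −1.70, −1.21 and −1.74. Olfr722 on chromosome 14 and Olfr1392 on chromosome 11 made up the 5.

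A stretch of chromosome 13 (66418114 to 67863925), also delimited after values were seen, held 30 tested genes, of which 21 were zinc finger genes of the Zfp and Rsl families. In it 4 genes were separated and higher and 4 lower (13.3% each way, beside 0.725% and 0.428% of all genes). Rsl1, a zinc finger repressor of male-specific liver genes, stood at 2.30 and 9.72 FPKM in the wild type and at 0.523 and 0.321 in Tex10-deficient spermatids. Zfp748 stood at 15.1 and 26.6 FPKM against 2.88 and 4.64, and the antisense gene 9430065F17Rik, which overlaps it, at 4.24 and 6.39 against 0 and 0. Reads of this overlapping pair cannot be told apart without the strand setting. Zfp457 in the same stretch stood the other way, at 15.5 and 5.47 FPKM against 22.2 and 44.1. For Zfp748 the differences in the other cell types were −0.71, −2.29 and −0.64 in spermatogonia, MI and MII spermatocytes, so that it was lower in all 4 cell types. 

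The direction of the separated genes was also read in the other cell types, without a test. Of the 95 separated higher genes, 68.4% were also higher in Tex10-deficient MI spermatocytes (49.7% of all genes), 62.1% in MII spermatocytes (48.5%) and 51.6% in spermatogonia (48.3%). Of the 56 lower genes, 73.2% were lower in MI spermatocytes (50.2%), 62.5% in MII spermatocytes (51.5%) and 28 genes in spermatogonia (51.7% of all genes were lower there). These comparisons share no libraries, but the sources used here do not say whether they share animals. Deviations of same-numbered Tex10-deficient MI spermatocyte and spermatid libraries correlated at 0.418, so the directions may not be independent. Of the 95 higher genes, 54 were under 5 FPKM in the higher group, and of the 56 lower genes 19 were.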
